A study of Mus musculus with 4 samples.

Results

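Lysosomes break down proteins, glycans, glycolipids and sterol esters with acid hydrolases, which reach the organelle through the secretory pathway and work inside a membrane lined by heavily glycosylated proteins. Melanosomes, the pigment organelles of melanocytes, belong to the lysosome-related organelles and share part of this machinery. The transcription factor TFEB and its relatives, MITF among them, are known to act on many lysosomal genes through E-box sequences. The 44 genes described here encode lysosomal hydrolases, their cofactors and membrane proteins, together with progranulin (Grn) and Tfeb. They were chosen by name for their function, with earlier results of these data known. All 44 were found among the 18193 genes that the arrays measure. The detection level was set to an intensity of 32 (log2 of 5), to be reached in at least 1 line, which held for 41 of the 44 genes and for 9415 genes in all.

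RNA of 4 immortalized mouse melanocyte lines, established from the skin of C57BL/6J pups aged 3 days, was hybridised to Affymetrix arrays, and each line had 1 array. Line 9v was WT and line 10d bcat*, which carries a stable, transcriptionally active β-catenin mutant expressed in the melanocyte lineage. The sample labels give line 13d as bcat* and line 14d as WT, while the article gives 13d as WT and 14d as bcat*, so that lines are described by name and each genotype comparison is given under both readings. Cultures of every line held 200 nM of the phorbol ester TPA, on which melanocytes depend in culture, and were taken at 80% confluency. Lines 9v and 10d were labelled male and lines 13d and 14d female, while the article describes the lines as made from male mice. The RNA integrity number was between 9.7 and 9.9. Nothing was repeated within a line, so a difference between lines has no replicate check. In RNA of a whole culture, fewer cells of a type and less RNA per cell cannot be told apart.

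The arrays were those of melanocytes by their markers. All 9 melanocyte markers were detected in each line, and Tyrp1, Dct and Pmel had intensities from 49559 to 57474. Xist had an intensity of 4 in lines 9v and 10d, 2124 in line 13d and 1768 in line 14d, so that it was high in the lines labelled female. The Y chromosome genes Kdm5d, Eif2s3y and Uty were each at least 2-fold lower in lines 13d and 14d than in lines 9v and 10d. Ctnnb1, which encodes β-catenin, ranged from 30254 in line 9v to 34368 in line 13d, and its probe sets do not separate the transgene from the endogenous gene. Of 8 macrophage markers, 6 lay under the detection level in every line, Ptprc, Adgre1, Itgam and Cd14 among them. The other two were Csf1r, at 34 to 51, and Lyz2, at 204 to 334 in lines 9v, 10d and 13d and 9580 in line 14d, so that the summed level of the list was 302 to 443 in 3 lines and 9693 in line 14d. Fibroblasts had been removed with the drug G418 when the lines were made, and of 8 fibroblast markers Col1a2 alone was detected, with a summed level of 82 to 243. Of 6 keratinocyte markers, Krt10, Cdh1 and Epcam were detected, with summed levels from 256 to 559 and Cdh1 at 272 in line 13d. The part of these levels in the results below was not tested.

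Most lysosomal genes stayed within 2-fold over the 4 lines, and a minority of single enzymes stood further apart. Between the highest and the lowest line, 11 of the 41 detected genes differed by at least 2-fold, against 40.1% of all detected genes. The median fold between the highest and the lowest line was 1.64 for the lysosomal genes and 1.79 for all detected genes. The 11 genes were the cathepsins Ctsc, Ctsf, Ctsl and Ctso, the glycosidases and sulfatase Glb1, Naglu, Manba and Galns, the glycolipid genes Gla and Gm2a, and the acid lipase Lipa. None of the 5 membrane protein genes was among them. The 6 widest ranges were 3.09-fold or more. Manba (2.06-fold), Galns (2.07-fold), Gm2a (2.07-fold) and Lipa (2.10-fold) lay just inside the threshold. Laptm4b (1.99-fold), Tpp1 (1.96-fold), Sgsh (1.92-fold) and Laptm4a (1.85-fold) lay just outside it.

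**Figure D1:**
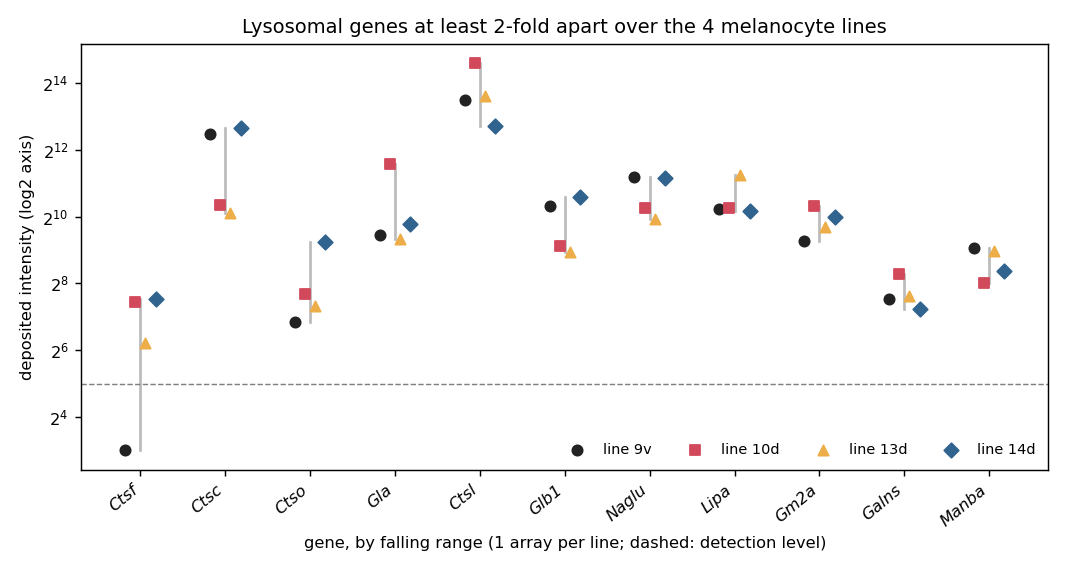
Deposited intensity on a log2 axis of the 11 lysosomal genes at least 2-fold apart, in lines 9v (black circles), 10d (red squares), 13d (yellow triangles) and 14d (blue diamonds), 1 array per line and therefore without error bars. The grey bars join the lowest and highest line, and the dashed line is the detection level of 32, under which Ctsf lay in line 9v. Ctsc and Glb1 fell into a high pair (9v, 14d) and a low pair (10d, 13d), and Gla was highest in line 10d.

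The promoters of some of these genes hold the E-box CACGTG, the core of the element through which TFEB and its relatives are known to act. In the RefSeq promoter windows (build GRCm38.p6, 250 bases before to 50 after each start), which covered 38 of the 44 genes, CACGTG was found for 11 of the 38 genes and in 26.2% of their 42 windows, against 7.15% of all 32851 windows. The longer palindrome TCACGTGA, which contains CACGTG, was found in 7.14% of the windows of lysosomal genes and 0.974% of all windows. The related sequence TCATGTGA was found in 11.9% and 0.986%, with both strands searched each time. CACGTG was present for 5 of the 10 genes with a window that were at least 2-fold apart and for 6 of the 28 others. The same split was not counted over all genes, of which 8.09% held CACGTG, and this contrast was not tested. Ctsa and Ctsd, both under 2-fold, hold TCACGTGA and are not shown. The stretches around CACGTG are shown for the 5 genes at least 2-fold apart that hold it. Lamp1 is shown as a gene that holds it and was level over the lines. Except for Gla, these stretches were chosen after the values were seen. Capitals mark CACGTG, TCACGTGA or TCATGTGA. The stretches lie at chrX:134601173-134601253 (minus strand, Gla), chr9:114401010-114401055 (plus, Glb1), chr11:101070001-101070046 (plus, Naglu), chr19:4855066-4855111 (plus, Ctsf), chr13:64370731-64370770 (minus, Ctsl) and chr8:13159080-13159160 (plus, Lamp1), all before the start site.
Gla: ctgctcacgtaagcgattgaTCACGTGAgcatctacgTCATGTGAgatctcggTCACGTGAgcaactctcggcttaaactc
Glb1: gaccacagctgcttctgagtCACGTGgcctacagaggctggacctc
Naglu: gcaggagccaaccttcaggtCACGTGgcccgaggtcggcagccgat
Ctsf: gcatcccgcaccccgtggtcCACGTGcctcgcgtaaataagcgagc
Ctsl: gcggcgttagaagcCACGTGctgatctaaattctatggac
Lamp1: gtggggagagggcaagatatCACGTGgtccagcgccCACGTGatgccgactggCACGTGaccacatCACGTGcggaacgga

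Among the cysteine cathepsins, the papain-like proteases of the lysosome, 6 of 9 genes were detected and 4 differed by at least 2-fold. Ctsc, the dipeptidyl peptidase that activates granule serine proteases in immune cells, had an intensity of 5630 in line 9v, 1308 in line 10d, 1093 in line 13d and 6384 in line 14d. Lines 9v and 14d were high and lines 10d and 13d low, without overlap, and line 14d was 5.84-fold higher than line 13d. Its other detected probe set had 109 in line 9v, 18 in lines 10d and 13d, and 127 in line 14d, so that it fell below the detection level in the same lines.

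Ctsl, which encodes the endopeptidase cathepsin L, had an intensity of 11531 in line 9v, 24575 in line 10d, 12373 in line 13d and 6682 in line 14d. Line 10d stood highest and line 14d lowest, 3.68-fold apart, and lines 9v and 13d lay close together between them, with a ratio of 1.07. Ctso had 116 in line 9v, 207 in line 10d, 160 in line 13d and 608 in line 14d. It was thus highest in line 14d, 2.94-fold over line 10d and 5.24-fold over line 9v, and its log2 range of 2.39 became 0.62 with the mean log2 of its probe sets, 1 of them undetected, and 2.35 with the mean of their linear intensities. Ctsf had 8 in line 9v, under the detection level, 175 in line 10d, 75 in line 13d and 187 in line 14d. It was at least 5.84-fold higher in line 14d and at least 2.34-fold higher in line 13d than in line 9v, and lines 10d and 14d differed by 1.07-fold.

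The other cathepsins were more even or absent. Ctsb encodes cathepsin B, and had 21330 in line 9v, 30798 in line 10d, 24425 in line 13d and 25406 in line 14d by its representative probe set, a range of 1.44-fold. Its 4 detected probe sets all put line 10d above line 9v, with folds from 1.44 to 2.84, so that the size of that difference depends on the probe set. Ctsz had 31499, 41052, 30748 and 28139 in lines 9v, 10d, 13d and 14d, and line 10d was again highest. Ctsh, Ctsk and Ctss, of which the last is the cathepsin of antigen-presenting cells, did not exceed an intensity of 18 in any line. Their values below the detection level have no order.

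Of the 3 other proteases, none differed by at least 2-fold. Tpp1, a tripeptidyl peptidase, had 5724 in line 9v, 11242 in line 10d, 8390 in line 13d and 7916 in line 14d, and its other probe set had a 3.00-fold range with the same highest and lowest lines. Ctsd, the aspartic protease of the lysosome, had 19256, 20687 and 20566 in lines 9v, 10d and 14d and 13969 in line 13d, so that line 13d was the lowest of the 4. Ctsa, the protective protein that stabilizes β-galactosidase and neuraminidase, ranged from 5532 in line 13d to 9046 in line 10d. 

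The glycosidases and sulfatases that take apart glycoproteins and glycosaminoglycans were all detected, and 4 of 12 differed by at least 2-fold. Glb1, which encodes the lysosomal β-galactosidase, had an intensity of 1286 in line 9v, 551 in line 10d, 496 in line 13d and 1535 in line 14d. Naglu, an enzyme of heparan sulfate breakdown, had 2303 in line 9v, 1223 in line 10d, 973 in line 13d and 2276 in line 14d. Both genes were high in lines 9v and 14d and low in lines 10d and 13d, as Ctsc was, with 3.09-fold for Glb1 and 2.37-fold for Naglu between the highest and the lowest line. Gusb, the β-glucuronidase, had 2999 and 3618 in lines 9v and 14d and 2234 and 2240 in lines 10d and 13d, an arrangement of the same kind with a range of 1.62-fold, and of 2.19-fold by its other probe set. 

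Manba, the β-mannosidase, had an intensity of 535 in line 9v, 260 in line 10d, 506 in line 13d and 334 in line 14d, and here lines 9v and 13d were the high ones. Galns, a sulfatase of keratan sulfate, had 184 in line 9v, 314 in line 10d, 196 in line 13d and 152 in line 14d, with line 10d highest. Each was measured by 1 detected probe set. The other glycosidases and sulfatases ranged from 1.27-fold for Ids, the iduronate sulfatase, to 1.92-fold for Sgsh, a sulfamidase of heparan sulfate, which was highest in line 14d. Neu1, the lysosomal neuraminidase, had 462 in line 9v, 498 in line 10d, 276 in line 13d and 373 in line 14d, a range of 1.80-fold with line 13d lowest. Arsb and Fuca1 were highest in line 9v, with ranges of 1.72-fold and 1.61-fold. Man2b1 and Idua had ranges of 1.42-fold and 1.31-fold.

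Of the 8 genes of sphingolipid breakdown, all were detected and 2 differed by at least 2-fold. Gla, on the X chromosome, encodes α-galactosidase A, the enzyme deficient in Fabry disease. It had an intensity of 705 in line 9v, 3034 in line 10d, 641 in line 13d and 886 in line 14d, and its other detected probe set had 55, 516, 113 and 39 in the same order of lines. Line 10d was highest by both probe sets, 4.73-fold over line 13d by the first and 13.2-fold over line 14d by the other, while the low lines did not keep their order. Its stretch shown above is the one that holds TCACGTGA and TCATGTGA together.

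Gm2a, the cofactor that presents ganglioside GM2 to β-hexosaminidase, had 619 in line 9v, 1279 in line 10d, 827 in line 13d and 1022 in line 14d. Its other probe set ranged over 3.18-fold with the same order of lines. Hexa, the α subunit of that hexosaminidase, had 13414 in line 9v, 19111 in line 10d, 11559 in line 13d and 15222 in line 14d. Lines 10d and 14d were the higher pair for both genes, with line 14d 1.24-fold above line 13d for Gm2a and 1.13-fold above line 9v for Hexa. Psap, the precursor of the saposins, ranged over 1.26-fold, and Arsa, the sulfatase that acts on sulfatide, over 1.17-fold. Galc, Smpd1 and Asah1, which act on galactosylceramide, sphingomyelin and ceramide, had ranges of 1.71-fold, 1.55-fold and 1.38-fold, and line 13d was the lowest for Galc and Asah1.

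Of the genes of glycogen, lipid and sterol handling, Lipa alone differed by at least 2-fold. Lipa, the acid lipase that frees cholesterol and fatty acids from esters, had an intensity of 1187 in line 9v, 1221 in line 10d, 2407 in line 13d and 1147 in line 14d. Line 13d stood apart and the other lines lay within 1.06-fold of each other, and each of its 3 detected probe sets showed line 13d at least 2.10-fold above line 14d. Npc1 and Npc2, which pass cholesterol out of the lysosome, had ranges of 1.51-fold and 1.23-fold by their representative probe sets, and the widest of the 3 detected probe sets of Npc2 ranged over 2.48-fold. Gaa, the acid α-glucosidase, and Ppt1, a thioesterase that removes palmitate from proteins, each had a range of 1.49-fold.

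Of the 5 membrane proteins, none differed by at least 2-fold, and Lamp1 and Lamp2 had the smallest ranges of the 41 detected genes by their representative probe sets. Lamp1 and Lamp2 are the main glycoproteins of the lysosomal membrane. Lamp1 had an intensity of 13525 in line 9v, 13320 in line 10d, 13890 in line 13d and 14536 in line 14d, a range of 1.09-fold. Lamp2 had 19276, 18824, 18702 and 20059 in the same order of lines, a range of 1.07-fold. Its 3 other probe sets ranged over 1.14-fold to 1.59-fold, the widest with line 10d highest and line 14d lowest. Scarb2, the receptor that carries β-glucocerebrosidase to lysosomes, had a range of 1.56-fold. The Laptm4 genes, which encode small proteins of the endosomal and lysosomal membrane, differed in their pattern. Laptm4b had 11513 in line 9v, 10527 in line 10d, 5797 in line 13d and 6010 in line 14d, and so lay higher in the lines labelled male by each of its 3 probe sets. Laptm4a had 10852, 9050 and 11107 in lines 9v, 10d and 13d and 16764 in line 14d. 

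Grn, whose product is cleaved to granulins in the lysosome, had an intensity of 7847 in line 9v, 11702 in line 10d, 8940 in line 13d and 7945 in line 14d. Tfeb had 119 in line 9v, 192 in line 10d, 186 in line 13d and 204 in line 14d, so that line 9v was lowest and the others lay within 1.10-fold of each other.

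**Figure D2:**
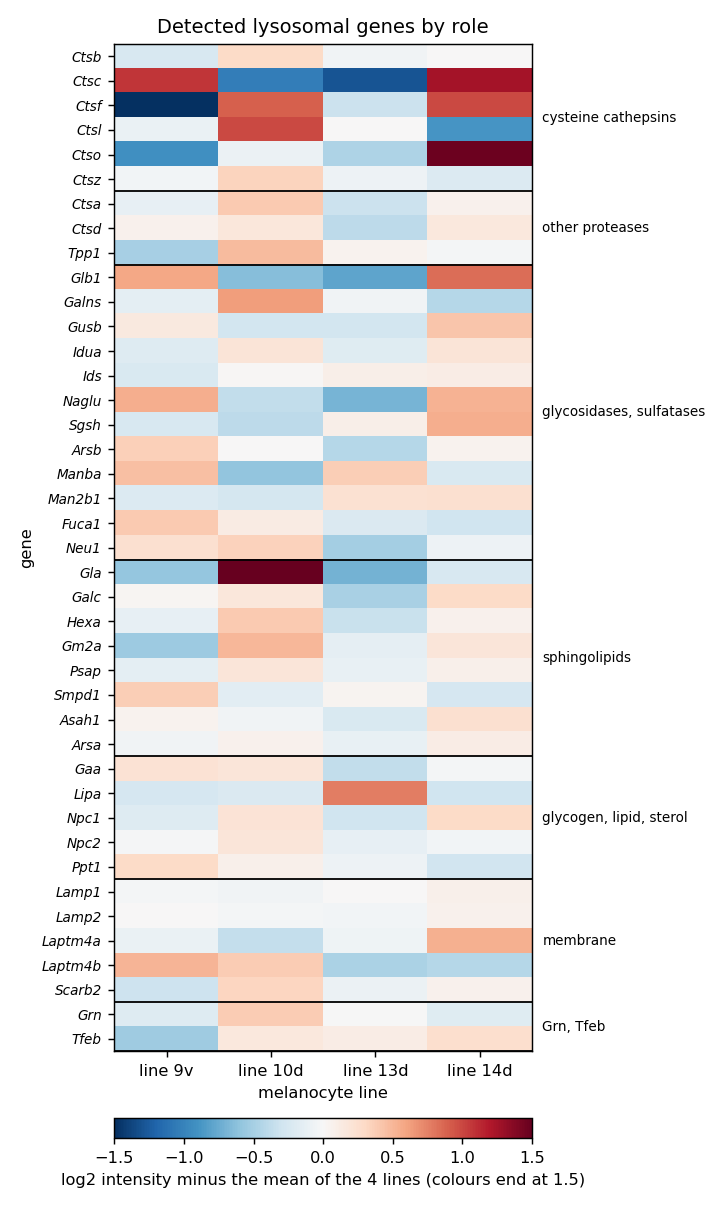
Log2 intensity of the 41 detected lysosomal genes (rows, by role) in the 4 lines (columns), as the difference from the gene's mean over the lines, with 1 array per line and colours that end at 1.5. Ctsc, Glb1 and Naglu are red in lines 9v and 14d and blue in lines 10d and 13d, Lipa is red in line 13d, and Lamp1 and Lamp2, with ranges of 1.09-fold and 1.07-fold, are near white throughout.

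Line 13d was the lowest of the 4 lines for 17 of the 41 lysosomal genes (41.5%), against 20.4% of all detected genes, and the highest for Lipa alone (2.44%), against 21.3%. A gap of any size counted, as for Lamp2, with 18702 in line 13d and 18824 in line 10d. Line 10d was highest for 15 genes (36.6%), against 28.8% of all detected genes, among them Ctsb, Ctsl, Ctsz, Gla, Hexa, Psap and Grn. Line 14d was highest for 16 genes (39.0%), against 29.5%, among them Ctsc, Ctso, Glb1, Lamp1 and Laptm4a. With the mean log2 of all probe sets, line 13d was lowest for 13 of 37 detected lysosomal genes (35.1%, against 20.1%). Line 10d was highest for 14 of these (37.8%, against 29.7%) and line 14d for 12 (32.4%, against 30.2%). Centring each array on its median raised line 10d by up to 0.19 (log2) relative to the others for all detected genes. The medians were 7 in line 10d and 8 in the others, whole numbers a single rounding step apart and under the detection level. Line 10d was then highest for 26 lysosomal genes (63.4%, against 42.3% of all detected genes). Line 14d was highest for 8 (19.5%, against 24.8%), so that it went from above to below the share of all genes. Line 13d was then lowest for 18 (43.9%, against 24.2%) and highest for 1 (2.44%, against 17.0%). Quantile normalization moved the median of all detected genes by at most 0.04 (log2). With it, line 10d was highest for 15 lysosomal genes (36.6%, against 29.1%) and line 14d for 17 (41.5%, against 31.5%).

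In pairs of lines, the median of the lysosomal genes lay furthest from 0 between lines 13d and 10d. The median log2 difference was -0.34 for 13d over 10d, 0.23 for 14d over 13d, 0.18 for 14d over 9v, 0.12 for 10d over 9v, -0.06 for 13d over 9v and -0.01 for 14d over 10d, each over 41 genes. The medians of all detected genes lay between -0.02 and 0.03. The 6 pairs share lines and are not independent of each other. 

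Between lines 10d and 9v, whose genotypes are not in dispute, Ctsf, Gla, Ctsl and Gm2a were at least 2-fold higher in line 10d, 4 genes against 7.85% of all detected genes. Ctsc, Glb1 and Manba were at least 2-fold lower, 3 genes against 10.0%. Their ratios of 10d to 9v were 4.30 for Gla, 2.13 for Ctsl, 2.07 for Gm2a, 0.232 for Ctsc, 0.428 for Glb1 and 0.486 for Manba, and that of Ctsf was at least 5.47. Line 13d was at least 2-fold over line 9v for Ctsf and Lipa (2 genes, against 6.04%) and at least 2-fold under it for Ctsc, Glb1 and Naglu (3 genes, against 6.97%). Line 14d was at least 2-fold over line 9v for Ctsf and Ctso (2 genes, against 5.93%) and under it for no lysosomal gene, against 9.49%. 

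Line 13d was at least 2-fold over line 10d for none of the lysosomal genes, against 8.55% of all detected genes, and under it for Gla and Ctsf (2 genes, against 6.28%). Line 14d was at least 2-fold over line 10d for Ctsc, Ctso and Glb1 (3 genes, against 11.4%) and under it for Ctsl, Gla and Galns (3 genes, against 12.4%). Over line 13d, line 14d was at least 2-fold higher for Ctsc, Ctso, Glb1, Ctsf and Naglu (5 genes, against 8.73%) and lower for Lipa (1 gene, against 11.0%).

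**Figure D3:**
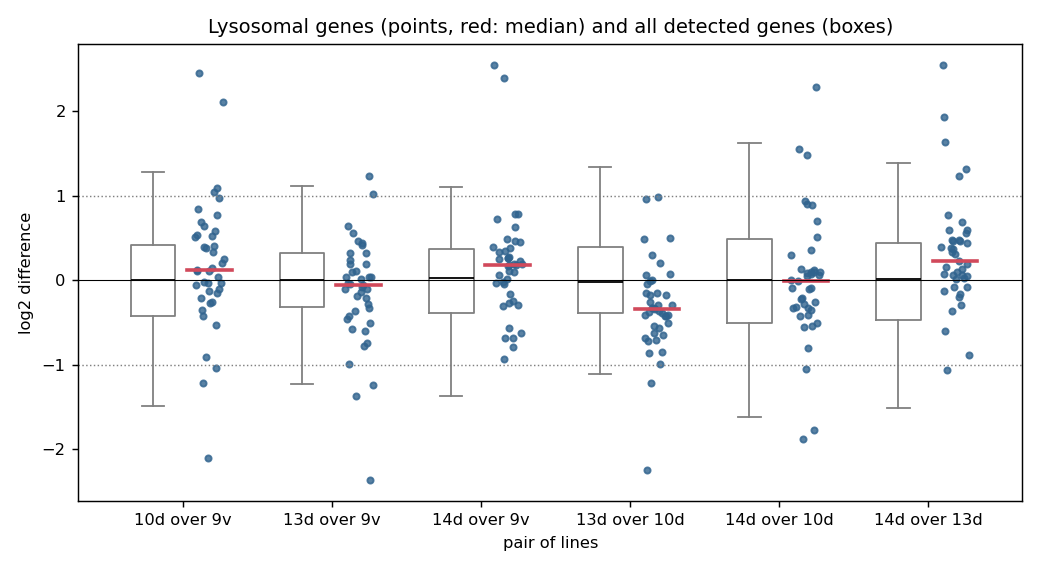
Log2 difference for each of the 6 pairs of lines, with the 41 detected lysosomal genes as points, their median as a red bar, and all detected genes as a box (quartiles and median) with whiskers from the 5th to the 95th percentile. Dotted lines mark 2-fold. The median of the lysosomal genes was lowest for 13d over 10d, at -0.34, and highest for 14d over 13d, at 0.23.

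No lysosomal gene passed the test between genotypes, whichever genotypes were given to lines 13d and 14d. With those of the sample labels, limma called none of the 41 lysosomal genes at an adjusted p under 0.05, and called 0.0887% of 9020 genes. At an unadjusted p under 0.05, 3 lysosomal genes were found, against 8.37% of all genes. These were Ctsc, with a log2 difference of bcat* over WT of -2.33 (SE 0.26, limma, adjusted p = 0.19), Glb1, with -1.43 (SE 0.26, limma, adjusted p = 0.38), and Naglu, with -1.07 (SE 0.26, limma, adjusted p = 0.47). All 3 were lower in each of the lines labelled bcat* than in each of the lines labelled WT.

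With the genotypes of the article, limma again called none of the 41 genes, and 0.0% of all genes. Manba was the 1 lysosomal gene at an unadjusted p under 0.05, against 3.54% of all genes, with a log2 difference of -0.82 (SE 0.27, limma, adjusted p = 0.99). Under this reading Ctsc had a log2 difference of 0.22 (SE 1.21), Glb1 of 0.20 (SE 0.77) and Naglu of 0.16 (SE 0.60), since each genotype then holds a high and a low line.

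The order of the lines also depended on the reading. With the labelled genotypes, both bcat* lines lay above both WT lines for 5 lysosomal genes (12.2%), against 18.4% of all detected genes, and below them for 7 (17.1%), against 19.5%. The gap was at least 2-fold for Ctsc and Glb1, 2 of the 41 lysosomal genes (4.88%), against 1.98% of all detected genes. With the genotypes of the article, both bcat* lines lay above both WT lines for 15 genes (36.6%), against 16.1%, and below them for Manba and Smpd1, 2 genes (4.88%) against 14.1%. Among the 15 were Ctsa, Ctsb, Ctsd, Gla, Gm2a, Hexa, Psap, Scarb2 and Tfeb, and Ctsf alone, 1 of the 41 (2.44%), had a gap of at least 2-fold, against 0.404% of all detected genes. Many of the gaps were small, as for Ctsd, with 20566 in line 14d and 19256 in line 9v. Between labelled sexes, both female lines lay above both male lines for 5 lysosomal genes (12.2%), against 12.7%, and below them for 7 (17.1%), against 13.0%, and no gap reached 2-fold.

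**Figure D4:**
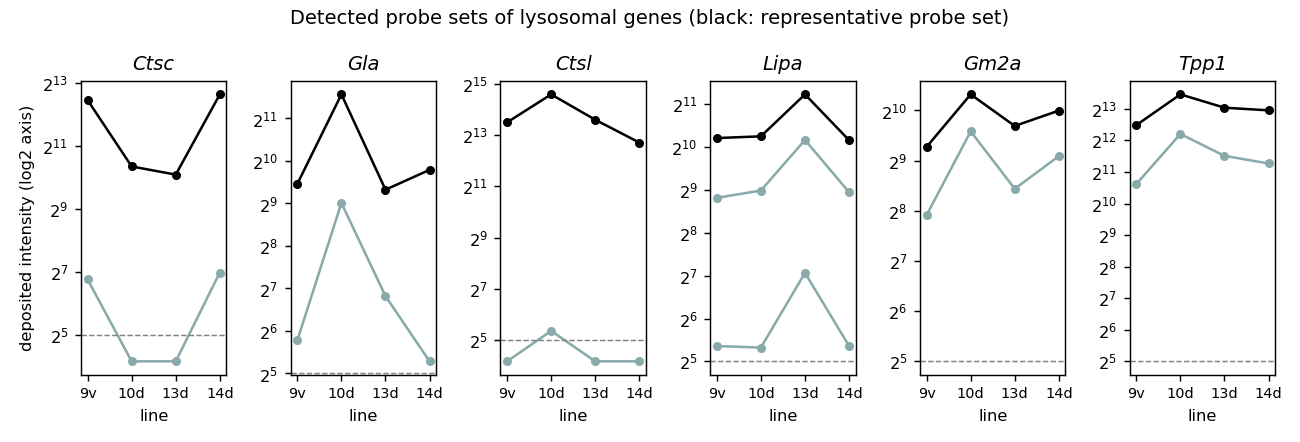
Deposited intensity on log2 axes of every detected probe set of Ctsc, Gla, Ctsl, Lipa, Gm2a and Tpp1 in lines 9v, 10d, 13d and 14d, with the representative probe set in black and the others in grey-green. The segments join the values of 1 probe set, the lines have no order, and the dashed line is the detection level of 32. The probe sets of Lipa all peak in line 13d, and those of Gla in line 10d, at 3034 and 516.

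Genes of the machinery around these enzymes were read in the same way, where 40.1% of all detected genes differed by at least 2-fold over the lines. Of 12 measured genes of enzyme delivery to lysosomes, 11 were detected, with a median range of 1.52-fold against 1.79-fold for all detected genes. Of the 11, Igf2r, Gnptg, Nagpa and Cln8 differed by at least 2-fold, and each was highest in line 10d. Line 10d was highest for 29.7% of all genes at least 2-fold apart. Of the delivery genes under 2-fold, M6pr, Sort1, Sumf1 and Cln6 were lowest in line 10d and Mcfd2 highest, by their representative probe sets. Igf2r, the large mannose 6-phosphate receptor, had an intensity of 270 in line 9v, 467 in line 10d, 256 in line 13d and 70 in line 14d, a range of 6.67-fold. Gnptg, a subunit of the enzyme that adds the mannose 6-phosphate tag, had 312 in line 9v, 913 in line 10d, 272 in line 13d and 483 in line 14d. Nagpa, which uncovers the tag and is also in the list of enzymes, ranged over 2.06-fold. The small receptor M6pr ranged over 1.95-fold, from 3011 in line 10d to 5881 in line 9v.

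Of 17 measured genes of other lysosomal enzymes, 16 were detected and 10 of them differed by at least 2-fold, against 40.1% of all detected genes and 11 of the 41 lysosomal genes described above, with a median range of 2.22-fold. Pla2g15, a lysosomal phospholipase, had an intensity of 45 in line 9v, 150 in line 10d, 179 in line 13d and 59 in line 14d. Hgsnat, which acts beside Naglu in heparan sulfate breakdown, had 2988 in line 9v, 4811 in line 10d, 4248 in line 13d and 9748 in line 14d, so that line 14d was highest by 2.03-fold. Siae, a sialic acid esterase, ranged over 3.09-fold with line 9v lowest. Of 10 detected genes of other membrane proteins, Abca2 and Ctns, the cystine exporter, differed by at least 2-fold, and the median range was 1.36-fold. The list of enzymes also held 5 genes, and that of membrane proteins 3, that were not analysed here.

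The list of cystatins and serpins, drawn up for inhibitors of cathepsins, showed the widest single range of these lists. Cst6, which encodes the secreted inhibitor cystatin E/M, had an intensity of 1407 in line 9v, 631 in line 10d, 769 in line 13d and 8895 in line 14d, a range of 14.1-fold. Cst3, cystatin C, had 14503 in line 9v, 20618 in line 10d, 16524 in line 13d and 30022 in line 14d. Both were highest in line 14d, as were 26.9% of all genes at least 2-fold apart. Their relation to the values of the cathepsins was not tested. Serpinb9, a serpin for which no action on cathepsins is assumed here, ranged over 3.29-fold, with line 13d highest.

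Of 14 genes of regulators, 13 were detected, and Rragd, Mtor and Fnip2 differed by at least 2-fold, each with line 9v highest. Line 9v was highest for 20.7% of all genes at least 2-fold apart. Rragd, a Rag GTPase of nutrient sensing at the lysosome, had an intensity of 3941 in line 9v, 2010 in line 10d, 1194 in line 13d and 1517 in line 14d. Mtor had 659, 521 and 507 in lines 9v, 10d and 13d and 263 in line 14d. The relatives of Tfeb were level, with 1.25-fold for Mitf and 1.20-fold for Tfe3, and Tfec was not detected.

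**Figure D5:**
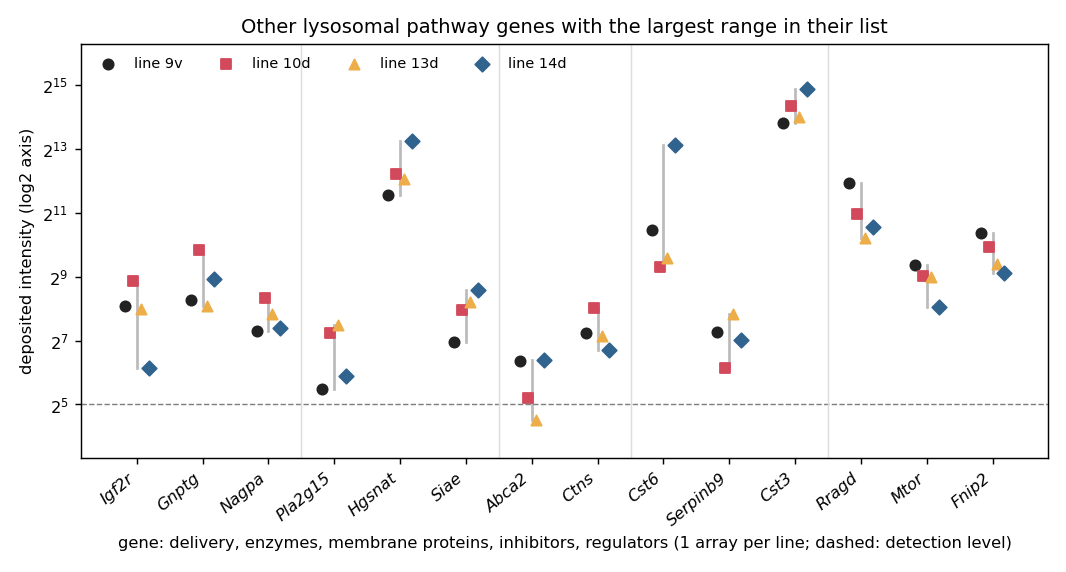
Deposited intensity on a log2 axis of up to 3 genes with the largest range from each list of other lysosomal pathway genes, separated by grey lines, in lines 9v (black circles), 10d (red squares), 13d (yellow triangles) and 14d (blue diamonds), 1 array per line. The dashed line is the detection level of 32. Cst6, at 8895 in line 14d and 631 to 1407 in the other lines, has the widest range.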

How the data were processed

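The authors deposited 1 intensity per probe set and array, on a linear scale rounded to whole numbers, as read from the values. The submitters' processing notes name GCRMA, which corrects background by probe sequence and normalizes between arrays; the sources used here do not give its version or further steps. Rounding makes ratios of dim probe sets coarse. The array medians were 7 or 8, and 35.8% to 36.1% of 45037 probe sets reached the detection level.

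Log2 was taken. The platform annotation lists 1 gene for 34945 probe sets and several for 932, and leaves out 9160. For each gene, the probe set of highest mean log2 over the 4 arrays stood as its representative. All 44 lysosomal genes matched a RefSeq gene of GRCm38.p6. Values were raised to log2 of 5 before differences were taken, so that a fold against an undetected line is a lower bound. Genotypes were compared with limma 3.58.1 (R 4.3.3) on the values as deposited, over genes with log2 of at least 5 on at least 2 arrays, with Benjamini-Hochberg adjustment over all 9020 genes; with 2 lines a genotype, p-values measure the spread between lines. Counting and fit were tested on simulated data. Alternatives in the choice of probe sets, normalization, detection level, fold threshold and limma fit were run. Genes named were those at least 2-fold apart over the lines, up to 3 per pathway list with the largest range, and a few others for their role. Members and lists were chosen with earlier results of these data known. Python 3.11.15, NumPy 2.4.6 and pandas 2.3.3 were used.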

Additional observations from a re-analysis of the deposited data

Results flagged for a closer look

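Among the 11 lysosomal genes at least 2-fold apart, the gap of a single line to the nearest other line exceeded the share of the whole log2 range that Dixon's 95% critical value for 4 samples allows for Lipa, at an intensity of 2407 in line 13d. The gap was 0.916 of the range. Chance flags about 1 in 20 groups that are not picked by their values. The 11 genes examined were picked by their range over the same 4 values, so this rate need not hold for them.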

How the results depend on the processing

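No paired analysis was possible because each line had 1 array, so that its replicate number only names it; a fit with labelled sex as a block was run. Over the alternatives run, the median log2 difference of the lysosomal genes lay between 0.08 and 0.31 for 10d over 9v, between -0.07 and -0.05 for 13d over 9v, between 0.13 and 0.18 for 14d over 9v, between -0.53 and -0.33 for 13d over 10d, between -0.20 and -0.01 for 14d over 10d and between 0.15 and 0.25 for 14d over 13d, and limma called none of the lysosomal genes under any of 14 alternatives, those that leave out a line included (0 to 0 genes). In 8 of these, each fit without a line among them, limma called no gene at all, so that they say nothing about stability; the fits without a line leave a genotype with 1 array, which is assumed to vary like the others. With the mean log2 of all probe sets, 0 lysosomal genes were at least 2-fold apart between lines 14d and 9v and 4 between lines 13d and 10d, and Ctsc and Ctso had log2 ranges of 1.79 and 0.62; with the mean of linear intensities the counts were 2 and 3 and the ranges 2.54 and 2.35. With median centring, 5 genes were apart between lines 13d and 10d. The log2 range of Ctsf, at 2.55, was 3.55 and 1.55 at detection levels of log2 4 and 6, which set its bound, and 1.57 with the mean of linear intensities. At 1.5-fold, 26 genes were apart over the 4 lines, 13 for 10d over 9v, 10 for 13d over 9v, 11 for 14d over 9v, 12 for 13d over 10d, 11 for 14d over 10d and 12 for 14d over 13d. At 3-fold the counts were 6, 3, 1, 2, 1, 3 and 3. The counts of lines above or below others were added after seeing the data; with median centring the labelled bcat* lines were both lower for 4 genes and the female lines both higher for 3, as they were with the mean log2 of all probe sets. The number of arrays limits the precision, and probe sets near background limit what dim genes can show.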
